A study of Mus musculus with 8 samples.

Results

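Serpinb6b, Dio2, Rgs1, Tubgcp4, Slamf9, Card19 and Mtap were 7 transcripts with lower values after interleukin 21 (IL-21) in macrophages of the infarcted mouse heart, and Serpinb6a was set beside them as the paralog of Serpinb6b. These 8 of the 53342 genes in the count files were chosen by name, and the 7 had been picked from an earlier analysis of the same libraries because they had small p values and lower values with IL-21, averaged over both macrophage subsets (Serpinb6b, Dio2, Rgs1 and Tubgcp4), in the Ly6Chi subset (Tubgcp4, Serpinb6b, Card19 and Slamf9) or in the Ly6Clo subset (Mtap). Their IL-21 differences are therefore given as descriptions with no test, and tests are given for the comparison of the subsets, which did not choose them. That comparison uses the same libraries, so the low stimulated counts of a chosen member also enter it. All 8 passed the filter on low counts (described under the processing), and their summed counts over the 8 libraries ranged from 77 for Dio2 to 392 for Rgs1.

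Wild-type C57BL/6 mice, 8 weeks old, had a myocardial infarction, and heart macrophages were sorted 3 days later into cells with a high (Ly6Chi) or a low (Ly6Clo) level of the surface antigen Ly6C. Each subset was cultured for 24 hours in medium with 10% fetal calf serum, with IL-21 at 100 ng/mL or without it, and each of the 4 groups had 2 libraries, numbered 1 and 2 in the titles. The culture is a model of isolated cells: other heart cells were not part of it, and the labels do not say whether the numbers stand for separate mice or cultures, so the p values rest on the spread of these libraries alone, and that spread may be technical. The libraries read the 3' ends of messenger RNAs and held 224329 to 483593 counts each, so that 1 count was worth 2.19 to 4.96 CPM (depth-scaled counts, with TMM factors).

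IL-21 is a cytokine of T cells that signals through its receptor, JAK kinases and mainly STAT3. The 8 genes have unrelated textbook roles. Serpinb6a and Serpinb6b encode clade B serpins, intracellular inhibitors that trap a protease by offering it an exposed loop near their carboxyl end. Dio2 encodes the selenoenzyme that converts thyroxine into the active thyroid hormone inside the cell. Rgs1 encodes a protein that speeds the switching off of G proteins and so dampens chemokine receptor signals, and Slamf9 a surface receptor of the SLAM family. Tubgcp4 encodes a subunit of the gamma-tubulin ring complex, from which microtubules grow, and Card19 a protein with a caspase recruitment domain. Mtap encodes the enzyme of the first step in the salvage of methylthioadenosine, a by-product of polyamine synthesis, to methionine.

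The coding ends of the Serpinb6 pair are shown because the loop that meets the protease is encoded there and because the count of each paralog depends on telling their reads apart. Both stretches run 5′ to 3′ on the strand of the gene and stop before the stop codon, and capitals mark bases that differ from the paralog or face a gap in the alignment. The Serpinb6b stretch is chr13:32978177-32978350 (plus strand, exon 7 of 7) and the Serpinb6a stretch is chr13:33918044-33918223 (minus strand, exon 8 of 8), in GRCm38.
Serpinb6b: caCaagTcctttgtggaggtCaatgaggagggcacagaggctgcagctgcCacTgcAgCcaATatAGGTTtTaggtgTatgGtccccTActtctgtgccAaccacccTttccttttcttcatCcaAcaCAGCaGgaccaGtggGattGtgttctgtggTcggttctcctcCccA
Serpinb6a: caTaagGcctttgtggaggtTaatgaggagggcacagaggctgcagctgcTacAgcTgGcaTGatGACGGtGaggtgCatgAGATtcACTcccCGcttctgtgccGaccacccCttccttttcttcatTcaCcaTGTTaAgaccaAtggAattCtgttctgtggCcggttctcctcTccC
Within these 180 aligned columns 77.8% were identical, against 85.7% over the 1137 aligned columns of the whole coding sequences, which are 1131 bases long in Serpinb6b and 1134 in Serpinb6a. The longest run of identical bases in the coding alignment was 57, shorter than the 75-base reads. In the last 400 bases of the transcripts, where 3' reads fall, 0 of 371 windows of 30 bases of Serpinb6b occurred in the annotated transcripts of any other gene. Serpinb6a shared 15 of its 371 windows, with Serpinb6c, Gm5749 and Gm8436 and in a stretch of 41 bases, and none of these with Serpinb6b. The deposited Serpinb6b values were whole numbers in all 8 libraries, while those of Serpinb6a were not whole (beyond a tolerance of 0.001) in 8 of 8. What made values not whole was not tested. For the other 6 members 0 of 371 windows were shared, and their values were not whole in 4 libraries for Dio2, Card19 and Mtap, 5 for Rgs1, 8 for Tubgcp4 and 0 for Slamf9.

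**Figure D1:**
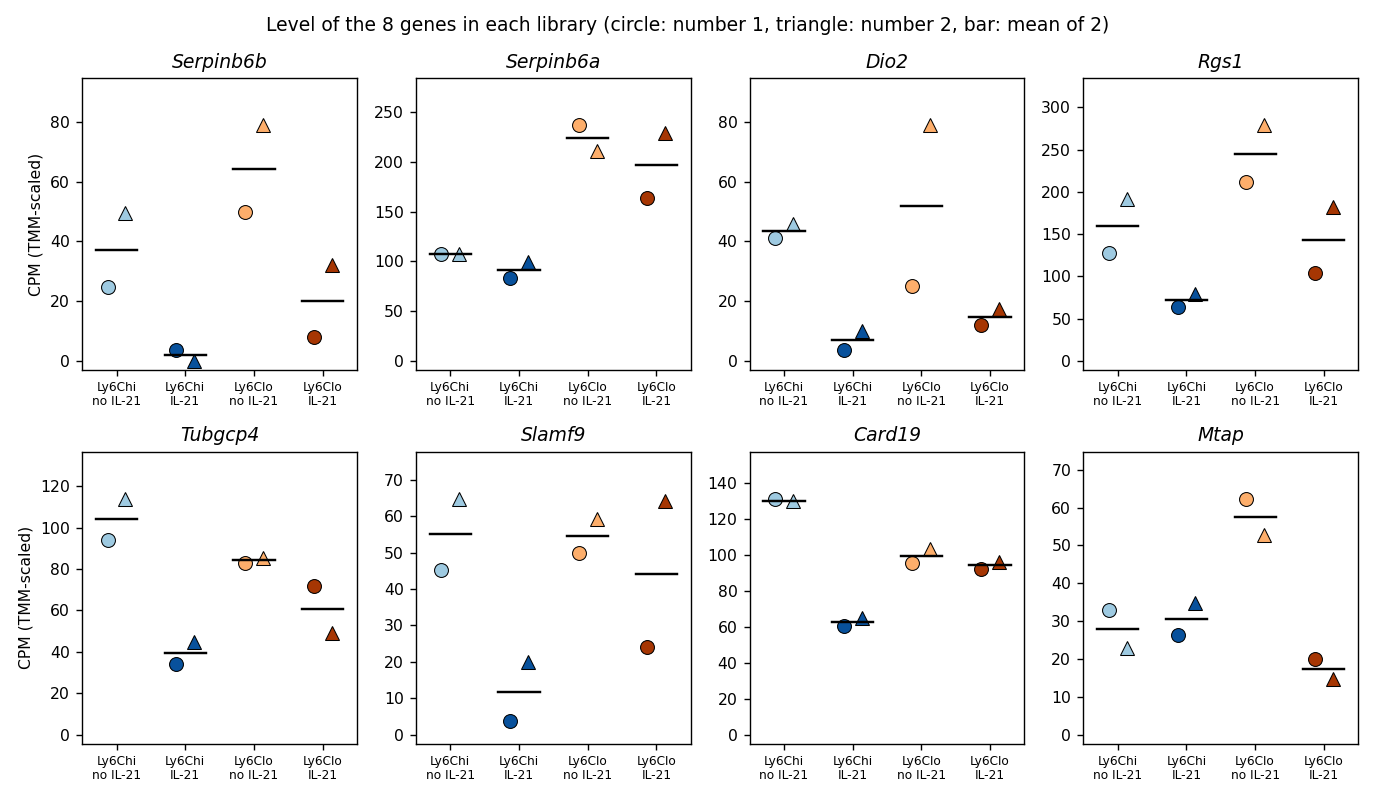
Level of each of the 8 genes in CPM (linear axis, TMM-scaled) in the 8 libraries, by subset and stimulation; circles are libraries numbered 1, triangles those numbered 2, and bars the mean of 2. In Ly6Chi cells, Serpinb6b went from 24.6 and 49.6 CPM to 3.77 and 0, while the Serpinb6a libraries ordered by subset, with every Ly6Clo library above every Ly6Chi library.

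Serpinb6b (ENSMUSG00000042842, chromosome 13, 32965209 to 32979067, plus strand) was read at low depth, with 83 counts in all. In the order of the library numbers, its counts in Ly6Chi cells were 6 and 13 without IL-21 and 1 and 0 with it, which corresponds to 24.6 and 49.6 CPM against 3.77 and 0 CPM. In Ly6Clo cells the counts were 12 and 36 without and 2 and 13 with IL-21, or 49.8 and 79.0 CPM against 7.99 and 32.0 CPM. Both stimulated libraries lay below both unstimulated ones within each subset, but the highest stimulated value, in Ly6Clo number 2, was above the lowest unstimulated value, in Ly6Chi number 1. Pooled over the 2 libraries of a group and scaled by depth, the level without IL-21 was 17.5 times that with it in Ly6Chi (95% counting interval 2.79 to 728, from 19 and 1 counts). In Ly6Clo that ratio was 3.01 (1.66 to 5.79, from 48 and 15 counts). These intervals are exact binomial ones and cover counting error only. The fitted log2 fold change was -3.88 (SE 1.10) in Ly6Chi and -1.57 (SE 0.57) in Ly6Clo, and with 1 library left out these ranged from -6.47 (without the first stimulated Ly6Chi library) to -3.18 and from -2.98 (without the second stimulated Ly6Clo library) to -1.05. A count of 0 in the second stimulated Ly6Chi library allows up to 3 counts, or 14.9 CPM, by counting error.

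Serpinb6a (ENSMUSG00000060147, chromosome 13, 33917918 to 34002794, minus strand), an inhibitor of trypsin-like proteases and of cathepsin G, had 383 counts and a much smaller IL-21 difference. Its counts in Ly6Chi cells were 26 and 28 without and 22 and 20 with IL-21, or 107 CPM in both unstimulated libraries and 82.8 and 99.3 CPM in the stimulated ones. In Ly6Clo cells they were 57 and 96 without and 41 and 93 with IL-21, or 237 and 211 CPM against 164 and 229 CPM. The Ly6Clo groups overlapped, with the second stimulated library above the second unstimulated one. The log2 fold change with IL-21 was -0.24 (SE 0.31) in Ly6Chi and -0.16 (SE 0.25) in Ly6Clo. The annotated span of Serpinb6a overlaps Ripk1, Nqo2 and 1110046J04Rik on the opposite strand, with 158, 72 and 12 counts, and whether strand was used in counting is not given in the sources used here.

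Setting the paralogs beside each other within a library removes the scaling between libraries. Serpinb6b made up 18.8% and 31.7% of the summed Serpinb6a and Serpinb6b counts in Ly6Chi cells without IL-21 and 4.35% and 0% with it. For the 0 of 20 counts the exact (Clopper-Pearson) 95% upper bound was 16.8%. In Ly6Clo cells the share was 17.4% and 27.3% without and 4.65% and 12.3% with IL-21. Pooled by group, the share was 26.0% (exact 95% interval 16.5 to 37.6) in Ly6Chi and 23.9% (18.2 to 30.4) in Ly6Clo without IL-21. With IL-21 it was 2.33% (0.0589 to 12.3) in Ly6Chi and 10.1% (5.74 to 16.1) in Ly6Clo. Every stimulated library had a lower share than every unstimulated library, and since Serpinb6b was chosen for its lower value with IL-21 this is a description. The unstimulated shares of the subsets had overlapping intervals.

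**Figure D2:**
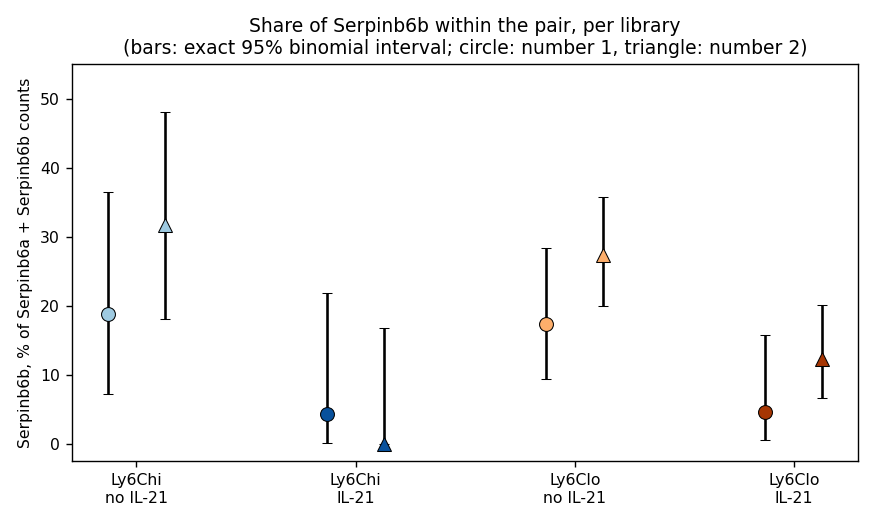
Serpinb6b counts as a percentage of the summed Serpinb6b and Serpinb6a counts in each library, by subset and stimulation, with the exact 95% binomial interval (counting error only); circles are libraries numbered 1 and triangles those numbered 2. The 4 unstimulated libraries lie between 17.4% and 31.7% and the 4 stimulated ones between 0% and 12.3%.

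Markers of another cell type moved with Serpinb6b. The 8 markers of mature dendritic cells (Ccr7, Fscn1, Ccl22, Cacnb3, Il4i1, Cd83, Relb and Il12b) were all detected, with 268 counts in all, and their summed level was 86.1 to 279 CPM in the 4 unstimulated libraries and 24.8 to 64.1 CPM in the 4 stimulated ones. Fscn1, which bundles actin in mature dendritic cells, had 45.1 and 45.8 CPM without and 11.3 and 4.96 CPM with IL-21 in Ly6Chi, and 41.5 and 90.0 CPM without and 0 and 22.2 CPM with it in Ly6Clo. Ccr7, their lymph node homing receptor, had 16.4 and 15.3 CPM without and 0 and 4.96 CPM with IL-21 in Ly6Chi, and 16.6 and 63.6 CPM without and 0 and 14.8 CPM with it in Ly6Clo. Relb, an NF-kappaB subunit that other cells also express, did not follow them. It had 16.4 and 38.1 CPM without and 30.1 and 9.93 CPM with IL-21 in Ly6Chi, and 24.9 and 52.7 CPM without and 28.0 and 14.8 CPM with it in Ly6Clo, so it was higher with IL-21 in both comparisons of libraries numbered 1. The other 5 markers had 3 to 20 counts each. The second unstimulated Ly6Clo library had the highest summed level of these markers and also the highest level of Serpinb6b, Dio2 and Rgs1. Of the 8 markers of conventional dendritic cells, Cd209a and Clec9a were listed at 0 in every library, and the summed level was 33.9 to 75.9 CPM with and 49.8 to 80.1 CPM without IL-21. Clec10a made up 97 of the 135 counts of that list, so the sum mostly shows this gene. Per library, Flt3 had 0 counts with and 1 to 2 without IL-21, and Xcr1 0 to 2 with and 0 to 7 without it. Zbtb46 had 0 to 2 counts with and without IL-21, Batf3 0 to 2 with and 0 to 3 without it, and Itgae 1 count in all. Siglech and Klk1 of the plasmacytoid list were at 0 too, and Bst2, which macrophages also express, made up 10177 of the 10691 counts of that list. In bulk libraries fewer cells of a type and less RNA per cell cannot be told apart, and the part of dendritic cells in the values of Serpinb6b and the other members was not tested.

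**Figure D3:**
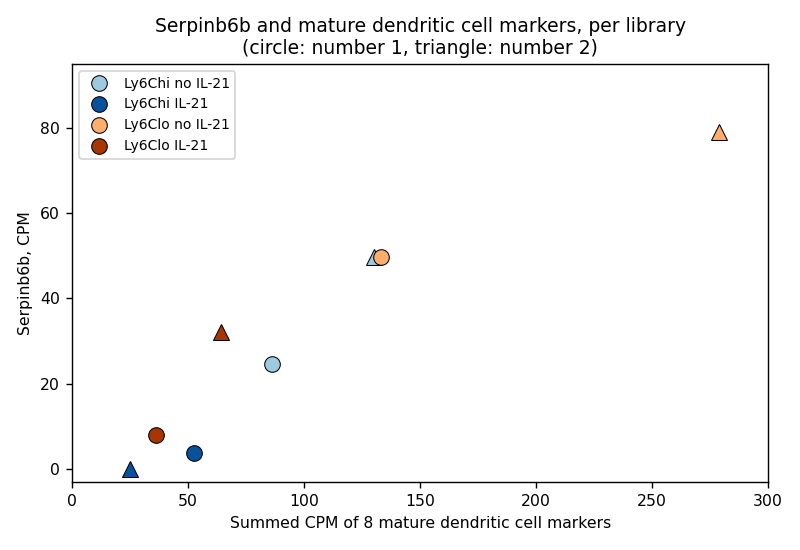
Serpinb6b in CPM (vertical axis) against the summed CPM of 8 mature dendritic cell markers (horizontal axis) in each of the 8 libraries, coloured by group; circles are libraries numbered 1 and triangles those numbered 2. The 4 stimulated libraries lie at or below 64.1 CPM of marker sum, and the library highest in both measures is the second unstimulated Ly6Clo library, at 279 and 79.0 CPM.

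Macrophage markers were present throughout. Of the 11 macrophage markers 10 were detected, led by Lyz2, Cd68 and Adgre1, with summed levels of 8620 to 12200 CPM with and 8400 to 12800 CPM without IL-21, while Itgam was listed at 0 in all 8 libraries. Markers of the Ly6Chi monocyte summed to 836 to 990 CPM in Ly6Chi and 187 to 452 CPM in Ly6Clo libraries, which follows the sort. Fibroblast markers (7 of 7 detected, led by Col1a2, Col3a1 and Col1a1) summed to 20.8 and 32.9 CPM without and 116 and 136 CPM with IL-21 in Ly6Clo, and to 69.7 and 160 CPM without and 15.1 and 74.5 CPM with it in Ly6Chi. Cardiomyocyte markers (6 of 6 detected, 50 counts in all) summed to 4.15 and 4.39 CPM without and 79.9 and 17.3 CPM with IL-21 in Ly6Clo, and to 4.10 and 57.2 CPM without and 0 and 19.9 CPM with it in Ly6Chi. Both sums were thus higher with IL-21 in Ly6Clo, where most members were lower, and the part of these cells in the members' values was not tested. Endothelial markers summed to 66.4 to 343 CPM, but 400 of their 411 counts were of Kdr, and Pecam1, Cdh5 and Vwf had 3, 2 and 6. Of the 3088 counts of the neutrophil list 2826 were of Mmp8, and the defining Ly6g and Retnlg were at 0. T cell and NK cell lists held 8 and 13 counts over all libraries, with Cd3g and Cd8a, and Ncr1 and Klrb1c, at 0, and Emcn of the endothelial list was at 0 as well.

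Dio2 (ENSMUSG00000007682, chromosome 12, 90724552 to 90738438, minus strand) had the lowest summed count of the members, 77. Its counts in Ly6Chi cells were 10 and 12 without IL-21 and 1 and 2 with it, or 41.0 and 45.8 CPM against 3.77 and 9.93 CPM. In Ly6Clo cells they were 6 and 36 without and 3 and 7 with IL-21, or 24.9 and 79.0 CPM against 12.0 and 17.3 CPM. All 4 stimulated libraries lay below all 4 unstimulated ones. This ordering held for 2 of the 8 members, Dio2 and Tubgcp4, beside 1.52% of the 5256 genes tested, and the rule used this contrast. The pooled level without IL-21 was 6.77 times that with it in Ly6Chi (95% counting interval 2.03 to 35.3) and 3.96 times in Ly6Clo (1.95 to 8.84). The fitted log2 fold change was -2.67 (SE 0.85) in Ly6Chi and -1.87 (SE 0.62) in Ly6Clo, and the Ly6Clo value was -0.70 without the second unstimulated Ly6Clo library, which held 36 of its 77 counts.

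Rgs1 (ENSMUSG00000026358, chromosome 1, 144242296 to 144249242, minus strand) was the most deeply read member, with 392 counts, and had a smaller proportional difference. Its counts in Ly6Chi cells were 31 and 50 without and 17 and 16 with IL-21, or 127 and 191 CPM against 64.0 and 79.4 CPM. In Ly6Clo cells they were 51 and 127 without and 26 and 74 with IL-21, or 212 and 279 CPM against 104 and 182 CPM. Each stimulated library had 41.7 to 65.4% of the level of the unstimulated library of its subset and number. Across subsets the groups overlapped, since the second stimulated Ly6Clo library was above the first unstimulated Ly6Chi one. The log2 fold change was -1.16 (SE 0.37) in Ly6Chi and -0.76 (SE 0.30) in Ly6Clo, where it was -0.44 without the first stimulated library and -1.24 without the second. Its span overlaps no other annotated gene.

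Tubgcp4 (ENSMUSG00000027263, chromosome 2, 121170654 to 121198770, plus strand) had 168 counts. In Ly6Chi cells the counts were 23 and 30 without and 9 and 9 with IL-21, or 94.3 and 114 CPM against 33.9 and 44.7 CPM, which do not overlap. In Ly6Clo cells they were 20 and 39 without and 18 and 20 with IL-21, or 83.0 and 85.6 CPM against 71.9 and 49.3 CPM. The log2 fold change was -1.42 (SE 0.38) in Ly6Chi and -0.52 (SE 0.33) in Ly6Clo, and the latter was -0.22 to -0.77 with 1 library left out. Its 3' end runs into Trp53bp1 on the opposite strand over 5490 bases, its 5' end overlaps Zscan29 over 472 bases, and the deposited values of Tubgcp4 were not whole in any library, so its level is uncertain. Trp53bp1 had 4 to 16 and Zscan29 10 to 20 counts per library.

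Slamf9 and Card19 were lower with IL-21 in Ly6Chi cells, the contrast that chose them, and their stimulated and unstimulated libraries overlapped in Ly6Clo cells. Slamf9 (ENSMUSG00000026548, chromosome 1, 172475358 to 172478575, plus strand) had 11 and 17 counts without and 1 and 4 with IL-21 in Ly6Chi, or 45.1 and 64.8 CPM against 3.77 and 19.9 CPM. In Ly6Clo it had 12 and 27 counts without and 6 and 26 with IL-21, or 49.8 and 59.3 CPM against 24.0 and 64.1 CPM. The stimulated Ly6Clo libraries lay on either side of the unstimulated ones. Its log2 fold change was -2.31 (SE 0.70) in Ly6Chi, where it was -1.45 without the first stimulated library and -3.74 without the second. In Ly6Clo it was -0.23 (SE 0.47), or 0.21 without the first stimulated library and -1.18 without the second. Card19 (ENSMUSG00000037960, chromosome 13, 49202950 to 49216037, minus strand) had replicates close to each other in every group. Its counts were 32 and 34 without and 16 and 13 with IL-21 in Ly6Chi, or 131 and 130.0 CPM against 60.2 and 64.5 CPM. In Ly6Clo they were 23 and 47 without and 23 and 39 with IL-21, or 95.5 and 103 CPM against 91.9 and 96.1 CPM. Its log2 fold change was -1.06 (SE 0.32) in Ly6Chi and -0.08 (SE 0.29) in Ly6Clo.

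Mtap (ENSMUSG00000062937, chromosome 4, 89137122 to 89181081, plus strand), chosen in Ly6Clo cells, showed the reverse arrangement. Its counts in Ly6Clo were 15 and 24 without and 5 and 6 with IL-21, or 62.3 and 52.7 CPM against 20.0 and 14.8 CPM, with no overlap. In Ly6Chi they were 8 and 6 without and 7 and 7 with IL-21, or 32.8 and 22.9 CPM against 26.4 and 34.8 CPM, with overlap. The pooled level without IL-21 was 3.34 times that with it in Ly6Clo (95% counting interval 1.68 to 7.23) and 0.923 times in Ly6Chi (0.408 to 2.09). The log2 fold change was -1.72 (SE 0.50) in Ly6Clo and 0.12 (SE 0.56) in Ly6Chi, where leaving out 1 library gave -0.12 to 0.41.

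**Figure D4:**
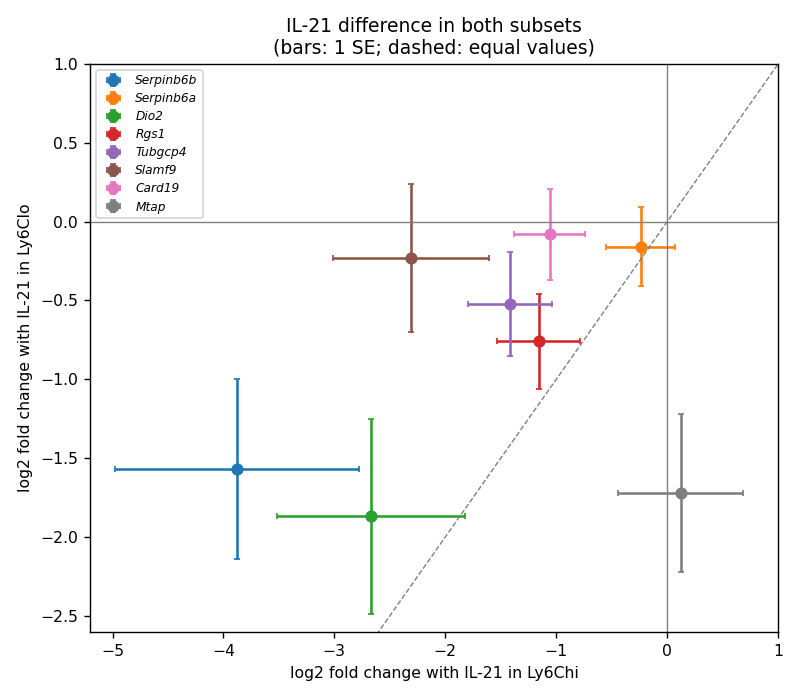
Fitted log2 fold change with IL-21 in Ly6Chi (horizontal axis) and Ly6Clo (vertical axis) for the 8 genes, with bars of 1 SE; the dashed line marks equal values, and the axes have different ranges. Serpinb6b (-3.88 and -1.57) and Dio2 (-2.67 and -1.87) are low in both subsets, Slamf9 and Card19 in Ly6Chi, and Mtap in Ly6Clo, which follows the contrasts that chose them.

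As background to the members' values, the share of all genes past the threshold for a difference with IL-21 (adjusted p under 0.05 in the quasi-likelihood test of edgeR, Benjamini-Hochberg over 5256 genes) was 0.171% averaged over the subsets, 0.019% in Ly6Chi and 0.133% in Ly6Clo. Every one of those calls was higher with IL-21. For genes lower with IL-21 edgeR and DESeq2 each called 0 in each of these 3 comparisons, while 105 genes averaged, 74 in Ly6Chi and 70 in Ly6Clo were lower at an unadjusted p under 0.05. Without a filter on low counts, edgeR called 5 genes lower averaged, 0 in Ly6Chi and 1 in Ly6Clo. In either direction the unadjusted share was 5.33% averaged, 3.52% in Ly6Chi and 3.52% in Ly6Clo. The members' averaged log2 fold changes were -2.73 (SE 0.61) for Serpinb6b, -2.27 (SE 0.52) for Dio2, -1.27 (SE 0.43) for Slamf9, -0.97 (SE 0.25) for Tubgcp4, -0.96 (SE 0.24) for Rgs1, -0.80 (SE 0.38) for Mtap, -0.57 (SE 0.22) for Card19 and -0.20 (SE 0.20) for Serpinb6a. The median over all genes was -0.007. Both stimulated libraries lay below both unstimulated ones in Ly6Chi for 7 of the 8 members, all but Mtap, beside 15.6% of all genes. In Ly6Clo this held for 5, Serpinb6b, Dio2, Rgs1, Tubgcp4 and Mtap, beside 14.5%, and in both subsets for 4, beside 3.18%. These comparisons chose the members, so nothing is read from the counts.

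Whether the IL-21 effect differed between the subsets was tested for the genes that this contrast had not chosen. The Ly6Clo effect less the Ly6Chi effect, on the log2 scale, was 0.80 (SE 1.13) for Dio2, 0.41 (SE 0.48) for Rgs1 and 0.08 (SE 0.40) for Serpinb6a, each with an edgeR adjusted p of 1.0, so none passed, and the SEs leave room for sizeable differences in either direction. For the members chosen within 1 subset or in both, the values are a description: 2.31 (SE 1.37) for Serpinb6b, 2.07 (SE 0.86) for Slamf9, 0.98 (SE 0.43) for Card19, 0.91 (SE 0.51) for Tubgcp4 and -1.84 (SE 0.76) for Mtap. With 1 library left out, the difference for Serpinb6b ran from 0.89 (without the second stimulated Ly6Clo library) to 4.91 (without the first stimulated Ly6Chi one). That for Slamf9 ran from 1.12 to 3.51 (without the second stimulated Ly6Clo and Ly6Chi library), and that for Dio2 from 0.21 (without the first stimulated Ly6Chi library) to 1.97 (without the second unstimulated Ly6Clo one). Across all genes 0% passed this test by edgeR (92 genes at an unadjusted p under 0.05), and DESeq2 called 0.

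The comparison of the subsets, averaged over stimulation, asked whether the members mark Ly6Clo or Ly6Chi macrophages. Serpinb6a was higher in Ly6Clo cells, at 210 ± 32.7 CPM against 98.9 ± 11.2 CPM in Ly6Chi cells (SD, n = 4 each), and all 4 Ly6Clo libraries (164 to 237 CPM) lay above all 4 Ly6Chi libraries (82.8 to 107 CPM). Its log2 fold change was 1.10 (SE 0.20), with an edgeR adjusted p of 0.037. It was 1 of the 8 members that passed, beside 0.19% of all genes in either direction and 0.0951% in this direction, and the 1 member with this ordering of libraries, beside 2.64% of all genes. The call ended with DESeq2 (1.10, SE 0.32, adjusted p 0.148). It also ended in 6 of the 8 edgeR fits with 1 library left out, those without any 1 of the 4 Ly6Chi libraries, the first unstimulated Ly6Clo library or the second stimulated one, at log2 fold changes of 0.95 to 1.15 and edgeR adjusted p values of 0.0888 to 0.221. Serpinb6a kept its direction in all 13 alternatives run.

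Serpinb6b had the same direction, at 42.2 ± 29.9 CPM in Ly6Clo and 19.5 ± 22.8 CPM in Ly6Chi (SD, n = 4 each), but overlapped between subsets and did not pass (log2 fold change 1.98, SE 0.65, edgeR adjusted p 0.416). Its stimulated Ly6Chi libraries, part of the contrasts that chose it, held 1 and 0 counts and enter this value. Rgs1, at 194 ± 72.4 and 115 ± 57.0 CPM (SD, n = 4 each), had a difference of 0.84 (SE 0.24) on the log2 scale, at 0.252 for the adjusted p from edgeR. It passed without a filter on low counts (0.86, edgeR adjusted p 0.0429). Slamf9 (1.04, SE 0.43) and Dio2 (0.77, SE 0.57) did not pass, at edgeR adjusted p values of 0.548 and 0.802. Leaving out 1 library gave 1.27 to 3.29 for Serpinb6b and 0.56 to 1.75 for Slamf9, in each case without the second stimulated Ly6Clo library for the lowest value and without a stimulated Ly6Chi library (the first for Serpinb6b, the second for Slamf9) for the highest. For Dio2 it gave 0.18 (without the second unstimulated Ly6Clo library) to 1.13, and none of these passed. Tubgcp4 (0.15, SE 0.26), Card19 (0.11, SE 0.22) and Mtap (0.10, SE 0.40) had values close to 0 beside their SEs, with edgeR adjusted p values of 0.942 to 0.973. Each of these averages joined subset differences of opposite direction without and with IL-21. Mean CPM of Mtap in Ly6Clo and Ly6Chi were 57.5 and 27.8 without IL-21 and 17.4 and 30.6 with it. For Card19 they were 99.3 and 130.0 without and 94.0 and 62.4 with IL-21. Those of Tubgcp4 were 84.3 and 104 without and 60.6 and 39.3 with it. The summed mature dendritic cell markers were 36.0 to 279 CPM in Ly6Clo and 24.8 to 130.0 CPM in Ly6Chi, and Mmp8, which made up most of the neutrophil sum, was at 538 to 1200 CPM in Ly6Clo and 1290 to 2150 CPM in Ly6Chi. S100a8 of that list overlapped between the subsets, at 45.7 to 104 and 74.5 to 139 CPM. The part of these markers in the subset differences was not tested.

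**Figure D5:**
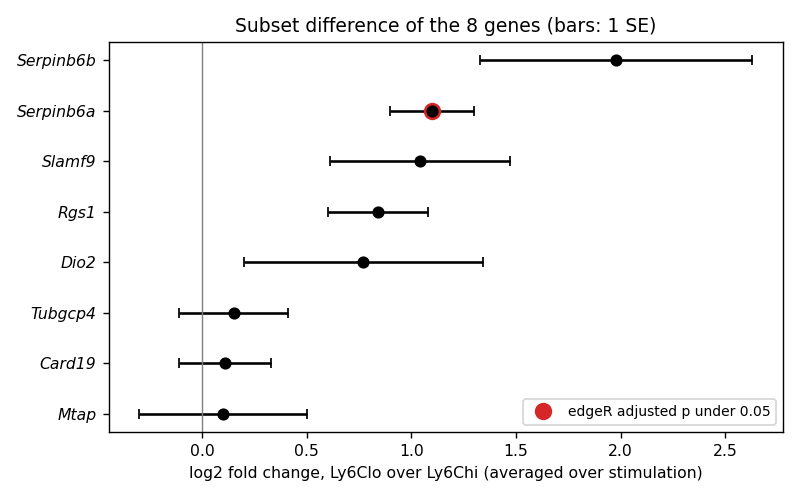
Log2 fold change of each of the 8 genes between Ly6Clo and Ly6Chi cells, averaged over stimulation (positive values are higher in Ly6Clo), with bars of 1 SE. Serpinb6a (1.10, SE 0.20), drawn as a red point, is the gene with an edgeR adjusted p under 0.05, and Serpinb6b has a larger value with a wider SE (1.98, SE 0.65). The stimulated Ly6Chi libraries, with 1 and 0 counts of Serpinb6b, enter that value.

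The members fell into patterns over the 8 libraries, given as descriptions because shared groups, shared numbers and the way the genes were chosen all enter them. Among the members the Pearson r of log2 CPM was 0.96 between Serpinb6b and Rgs1 and 0.91 between Tubgcp4 and Card19. Between Serpinb6b and its paralog Serpinb6a it was 0.62, and between Mtap and the other 7 members it was 0.01 to 0.40. Over all genes tested, the 3 most like Serpinb6b were Rgs1, Cipc (0.94) and Cst3, the cysteine protease inhibitor cystatin C (0.93). Those most like Rgs1 were Cipc (0.96), Serpinb6b and Mat2a (0.92), which makes S-adenosylmethionine. Ywhah (0.96), Snhg8 (0.96) and Ssr2 (0.95) were most like Serpinb6a, and Tusc1, Tbp (0.91 each) and Nedd4l (0.89) most like Dio2. Mef2c, a transcription factor (0.97), Igbp1 and Gnas (0.95 each) were most like Tubgcp4, and Cwc15 (0.97), Plekhm1 and Mrpl21 (0.96 each) most like Slamf9. Cers2, a ceramide synthase (0.98), Tubgcp4 and U2af1 (0.90) were most like Card19, and Gm13625 (0.96), Gm17300 (0.95) and Ints4 (0.93) most like Mtap. Each coefficient rests on the same 8 libraries.

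None of the tested partners of the members in their pathways passed at this depth. Of the other genes on 7 lists of family and pathway members, 40 were tested, and 0 passed by edgeR or DESeq2 for the averaged IL-21 effect. By edgeR 0.171% of all genes passed, so nothing is read from the 0. Of the 40, 20 were below 0, and the median log2 fold change was -0.01. At an unadjusted edgeR p under 0.05 there were 3, all lower, beside 280 of all 5256 genes, 105 of them lower. In Ly6Chi there was 1, lower with IL-21, and in Ly6Clo 1, higher with it, beside 3.52% of all genes in either subset. For the subsets 0 of 40 passed by either tool, with 4 at an unadjusted p under 0.05, beside 7.78% of all genes. Among clade B serpins 2 of 22 other genes were tested, Serpinb8 (averaged log2 fold change 0.18, SE 0.22) and the granzyme B inhibitor Serpinb9 (-0.41, SE 0.66), and 13 of the 22 were at 0 in every library. Serpinb9 separated by library number more than by stimulation, at 18.8 to 49.8 CPM in the libraries numbered 1 and 69.5 to 151 CPM in those numbered 2. Of the thyroid hormone genes 5 of 15 were tested, 3 of them below 0, and the most abundant were the corepressor Ncor1 (-0.14, SE 0.16), the transporter Slc16a10 (-0.17, SE 0.26) and the receptor partner Rxra (0.20, SE 0.24).

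Rgs2, another regulator of G protein signalling, had a mean of 308 ± 81.6 CPM with and 423 ± 93.0 CPM without IL-21 (SD, n = 4 each), for which the averaged log2 fold change was -0.47 (SE 0.16). With 0.70 as its adjusted p by edgeR, Rgs2 did not pass. The G alpha subunits Gnai2 (0.10, SE 0.15) and Gna13 (-0.06, SE 0.16) had values close to 0, and of the 8 tested genes of this list other than Rgs1, 4 were below 0. Akap9 (-0.29, SE 0.24) and Pcnt (0.03, SE 0.45), centrosomal scaffolds of the gamma-tubulin complex, were the 2 tested of 13 partners of Tubgcp4, so the ring complex itself could not be followed. In the SLAM family the receptors Cd84 (-0.05, SE 0.16), Ly9 (-0.12, SE 0.16) and Slamf7 (0.08, SE 0.44) had 1994, 1465 and 1228 counts in all, and 3 of the 8 tested were below 0. The kinase Prkcd (-0.16, SE 0.16), the adaptor Tab2 (0.12, SE 0.19) and Bcl10 (0.13, SE 0.20) led the 9 tested CARD and BCL10 pathway genes, 5 of them below 0. In methionine salvage and its neighbours 6 of 15 were tested, among them Pnp (0.22, SE 0.19) and Aprt (-0.16, SE 0.18), which recycle purines, and Mat2b (-0.33, SE 0.21), with 3 of the 6 below 0.

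Promoters of 7 of the 8 members were matched in the RefSeq table (GRCm38.p6; 250 bases before to 50 after a start, 2 for Serpinb6a). Motifs were searched on both strands, and a match of TTCNNNGAA can overlap one of GAGGAA. The STAT-type palindrome TTCNNNGAA occurred in 1 of these 8 windows, that of Serpinb6a, and in 8.3% of all 32851 windows. The PU.1-type core GAGGAA occurred in 4 of 8, those of Serpinb6b, Serpinb6a, Slamf9 and Mtap, and in 28.3% of all. The matches of Serpinb6a and Mtap did not lie wholly upstream of the first annotated start in the window, RefSeq or GENCODE. For Mtap that was a GENCODE start, which left 2 bases upstream. Whether its match precedes the RefSeq start was not examined. The AP-1-type motif TGANTCA occurred in none of the 8 and in 7.8% of all, and the cAMP-response element TGACGTCA in that of Dio2 and in 1.8% of all. The upstream stretches of Serpinb6b and Dio2, the members with the largest fitted differences with IL-21, are printed 5′ to 3′ on the strand of the gene with these motifs in capitals, at chr13:32965011-32965208 (plus strand) and chr12:90739039-90739288 (minus strand). The Dio2 stretch precedes a RefSeq start and does not adjoin the GENCODE span of the gene, which ends at 90738438.
Serpinb6b promoter: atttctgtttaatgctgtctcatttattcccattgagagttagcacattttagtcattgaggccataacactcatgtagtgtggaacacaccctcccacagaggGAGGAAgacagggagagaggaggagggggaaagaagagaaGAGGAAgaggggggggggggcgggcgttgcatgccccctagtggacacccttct
Dio2 promoter: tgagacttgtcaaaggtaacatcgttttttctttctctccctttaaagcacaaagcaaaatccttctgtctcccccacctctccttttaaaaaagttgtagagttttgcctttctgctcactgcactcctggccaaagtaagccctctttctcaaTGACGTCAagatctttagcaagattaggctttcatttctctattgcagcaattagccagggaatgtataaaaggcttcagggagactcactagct
A match is a string of letters and not a site shown to be bound, and no binding was measured in these cells.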

How the data were processed

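The authors deposited estimated counts (expected counts) per Ensembl gene, called raw per the file headers, of which 53.3 to 59.7% of the values above 0 were not whole. Per the submitters' processing notes, the build was mm10 and DESeq2 was among the tools. Aligner, counter, annotation release, strand setting and use of molecular identifiers: not given in the sources used here. Values were rounded, and 53237 of 53342 identifiers matched GENCODE M21 (GRCm38). The 5256 genes kept by filterByExpr (minimum count 10, minimum total 15) were fitted in edgeR 4.0.16 (R 4.3.3) with TMM, 4 group means and the robust quasi-likelihood test (4 residual degrees of freedom). Adjusted p values are Benjamini-Hochberg over all genes tested. Each SE of an edgeR fit is the size of the log2 fold change divided by the square root of the F statistic of that test. It is thus derived from the test, and is an approximate guide where counts are few. The SE given with DESeq2 is the one that tool reports. The design had assumed whole counts. CPM use TMM-scaled totals of the kept genes.

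The members and lists were chosen with earlier results of these data known. Named beside the members are up to 3 tested genes per list by level, every list gene past the threshold, the 3 genes of highest r (log2 CPM, prior count 2) per member, overlapping genes, and markers by level or at 0 (1 marker list is not reported here). Alternatives were RLE factors, DESeq2 1.42.0, no filter, unrounded values, the replicate number as a block and each library left out. On simulated counts for the subset comparison (5256 genes, 5 simulations) 97.6% of 4-fold, 56.6% of 2-fold and 0.127% of unchanged genes were called. The simulation gave all genes 1 common spread (biological coefficient of variation 0.201) and placed the changes on randomly picked genes. These rates therefore do not carry over to members with few counts or a wider spread. Serpinb6b, at a fitted 3.95-fold in this comparison, did not pass.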

Additional observations from a re-analysis of the deposited data

How the results depend on the processing

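Depth was 1 limit: 1 count moved a member by 2.19 to 4.96 CPM, and 5 of the 8 members had 168 counts or fewer in all libraries together. All 8 members kept the direction of their averaged IL-21 difference in 13 of 13 alternatives. This is a description, since all but Serpinb6a were picked for lower values in these libraries, which the alternatives refit. Within Ly6Clo, the signs of Slamf9 and Serpinb6a each turned in 1 alternative, without the first stimulated Ly6Clo library (0.21 and 0.04). Within Ly6Chi, the sign of Mtap turned in 2, without the second stimulated or the second unstimulated Ly6Chi library (-0.07 and -0.12).

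Without a filter on low counts, the genes called were 35 for the averaged IL-21 effect, 8 in Ly6Chi, 16 in Ly6Clo, 1 for the difference of the effects and 58 for the subsets, against 9, 1, 7, 0 and 10. Of these, 5 averaged and 1 in Ly6Clo were lower with IL-21. Unrounded values gave 3 in Ly6Clo. With 1 library left out the counts ranged from 5 to 15 averaged, 0 to 3 in Ly6Chi, 0 to 7 in Ly6Clo, 0 to 0 for the difference and 3 to 22 for the subsets. The averaged count was 5 without the second unstimulated Ly6Chi library and 15 without the second stimulated Ly6Clo one. The Ly6Chi count was 0 without the first stimulated Ly6Chi library, 3 without the second, and 2 without the first unstimulated library of either subset. The Ly6Clo count was 0 without the second unstimulated Ly6Clo library, 3 without the second stimulated one, and 4 without the first of either or the second stimulated Ly6Chi one. The subset count was 22 without the second unstimulated Ly6Clo library, 3 and 4 without the first and second stimulated Ly6Chi ones, 4 without the first unstimulated Ly6Clo one and 6 without the first stimulated one. Calls lower with IL-21 were 0 to 2 averaged, 0 to 2 in Ly6Chi and 0 to 1 in Ly6Clo. The cause of these shifts was not tested.

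Libraries of the same number shared differences (Pearson r across genes of the number 1 minus number 2 difference between groups, 0.234 to 0.412), but with 2 numbers, whose meaning the labels do not give, they were not treated as pairs. With the replicate number as a block, 60 genes were called for the averaged IL-21 effect, 14 in Ly6Chi, 29 in Ly6Clo, 1 for the difference and 132 for the subsets. Of these, 8 averaged, 1 in Ly6Chi and 2 in Ly6Clo were lower with IL-21. In the block fit of the subsets Serpinb6a passed (1.09, edgeR adjusted p 0.000677) and so did Rgs1 (0.80, edgeR adjusted p 0.0126).

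Some values changed sign when 1 library was left out. These were, as lowest and highest log2 fold change, the averaged IL-21 effects of Serpinb9 (-1.16 to 0.14), Slc16a10 (-0.40 to 0.08), Gna13 (-0.14 to 0.03), Pcnt (-0.31 to 0.46, and -0.01 with DESeq2), Cd84 (-0.15 to 0.04), Slamf7 (-0.40 to 0.41) and Tab2 (-0.01 to 0.24). They also include the difference of IL-21 effects of Serpinb6a (-0.19 to 0.28) and Rgs1 (-0.08 to 0.71) and the subset difference of Mtap (-0.02 to 0.25).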
